A study of Homo sapiens with 3 samples.

Results

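Actin filaments, the proteins that turn them over or bundle them, and the intermediate filament protein vimentin were followed in THP-1 cells treated with an inhibitor of the histone demethylase LSD1. The group holds 10 genes, named through their UniProt protein accessions by a rule that sets no threshold on a measured value. These are the actins ACTB (P60709) and ACTG1 (P63261), the monomer-binding or filament-severing proteins PFN1 (P07737), CFL1 (P23528), TMSB4X (P62328) and TMSB10 (P63313), the filament-bundling or crosslinking proteins LCP1 (P13796), CORO1A (P31146) and FLNA (P21333), and VIM (P08670). The count table has 213543 rows, 73321 under protein accessions and 140222 under Ensembl transcript identifiers, and it holds a row for 7 of the 10 accessions. ACTB, CFL1 and VIM were not analysed here under their accessions. Of the 7 rows, 3 are listed at 0 in every library (ACTG1, CORO1A and FLNA) and 4 reached 10 counts in at least 1 library (LCP1, TMSB4X, TMSB10 and PFN1), so most statements on values concern these 4 genes.

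THP-1 is an established human line of acute monocytic leukemia cells with the MLL-AF9 fusion gene, and it can be driven towards monocyte-like cells. RNA was sequenced from untreated cells (0 h, labelled control) and from cells given 0.2 µM GSK-LSD1 for 8 h or 24 h, with 1 library per time point, all from the same unmodified cell line grown in serum-containing medium. The labels name no vehicle for the untreated cells, and no time point has a replicate, so no p-value was computed and no difference could be set against a spread between replicates. The comparisons ask which of these transcripts differed between untreated cells, early treatment and later treatment.

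In all, 1475938 counts were assigned in untreated cells, 1310912 at 8 h and 1444011 at 24 h. Levels are given as CPM (counts divided by library size and multiplied by 1e6) after TMM scaling. TMM, the trimmed mean of M-values, corrects for library composition. Intervals are exact 95% intervals for counting error alone, because single libraries give no spread between replicates. The reads carry no molecular identifiers and are not independent molecules, so the intervals may be too narrow even for counting error. Of 10 myeloid markers, PU.1 (SPI1) had 69, 87 and 102 counts, CEBPA had 1848, 1716 and 1717, lysozyme (LYZ) had 655, 747 and 1773 and the integrin ITGAM had 87, 120 and 339. CD4 had 222, 257 and 309 counts, MPO had 17, 18 and 18 and FCGR1A had 4, 11 and 6, while CD33 and CSF1R were listed at 0 and CD14 had 0, 5 and 6. Of 6 markers of other cell types, CD3E, HBB, GATA1, EPCAM and ALB were listed at 0 in every library and COL1A1 had 0, 4 and 2 counts. Fewer cells that express a gene and less RNA per cell cannot be told apart in such bulk libraries.

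Actin monomers add to the ends of filaments and leave them again, and cells set this balance with proteins that hold monomers in reserve, feed them to growing ends, sever old filaments or tie filaments into bundles and networks. β-thymosins hold monomeric actin, profilin hands it to growing ends, cofilin severs filaments, and plastin, filamin and coronin organise the resulting network. Vimentin forms a separate, non-actin filament network that is typical of mesenchymal and many blood cells. In monocytes and macrophages these systems serve migration, adhesion and the uptake of particles.

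The β-thymosins TMSB4X and TMSB10 are small paralogs, and their coding sequences are shown here because reads could in principle be assigned to either gene. In GRCh38, TMSB4X spans 12975110 to 12977227 on the forward strand of chromosome X, with 3 exons and 622 bp in its main coding transcript, and TMSB10 spans 84905656 to 84906671 on the forward strand of chromosome 2, with 3 exons and 461 bp. Each coding sequence has 135 bases with the stop codon, and capitals mark the bases at which the paralogs differ. The coding spans, introns included, are chrX:12976262-12976811 and chr2:84906018-84906423.
TMSB4X: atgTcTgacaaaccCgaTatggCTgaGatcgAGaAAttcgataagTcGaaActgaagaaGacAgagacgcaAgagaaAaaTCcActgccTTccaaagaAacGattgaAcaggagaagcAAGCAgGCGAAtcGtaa
TMSB10: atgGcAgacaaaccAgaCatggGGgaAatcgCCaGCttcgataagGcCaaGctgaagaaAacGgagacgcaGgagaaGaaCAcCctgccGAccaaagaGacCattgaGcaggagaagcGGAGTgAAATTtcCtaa
The aligned coding sequences differed at 37 of 135 bases, an identity of 72.6%, and their longest shared run was 10 bases, both in the coding sequences and in the whole transcripts. The mismatches are spread over the length of the coding sequence.

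TMSB4X, a main reserve protein for actin monomers in many cells, had 1672 counts in untreated cells, 2148 at 8 h and 3053 at 24 h. Its level was 1088 CPM (1037 to 1142) at 0 h, 1678 CPM (1607 to 1750) at 8 h and 2150 CPM (2074 to 2227) at 24 h. The untreated library was lowest and the 24 h library highest, and no counting intervals overlapped. The log2 ratio against 0 h was 0.62 (0.53 to 0.72) at 8 h and 0.98 (0.90 to 1.07) at 24 h, a 1.98-fold higher level at 24 h. From 8 h to 24 h the log2 ratio was 0.36 (0.28 to 0.44).

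TMSB10, the second β-thymosin of the group, had 1046 counts in untreated cells, 1215 at 8 h and 1828 at 24 h. Its level was 681 CPM (640.2 to 723) at 0 h, 949 CPM (896 to 1004) at 8 h and 1287 CPM (1229 to 1347) at 24 h. The order of the libraries was that of TMSB4X, again without overlap of the counting intervals. The log2 ratio was 0.48 (0.36 to 0.60) at 8 h and 0.92 (0.81 to 1.03) at 24 h against 0 h, and 0.44 (0.33 to 0.55) at 24 h against 8 h. The share of TMSB4X in the counts of both thymosins, which does not depend on library scaling, was 61.5% (95% Wilson interval 59.7% to 63.3%) at 0 h, 63.9% (62.2% to 65.5%) at 8 h and 62.5% (61.2% to 63.9%) at 24 h. These intervals overlap, but overlap is no test of a difference, and a shift of the balance between the paralogs was not tested.

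LCP1, the leukocyte plastin that ties actin filaments into tight bundles, had a different course. Its counts were 4869 in untreated cells, 5432 at 8 h and 5300 at 24 h, or 3169 CPM (3081 to 3260), 4242 CPM (4130 to 4357) and 3732 CPM (3632 to 3834). The 8 h library was highest and the untreated library lowest, with no overlap of the counting intervals. The log2 ratio was 0.42 (0.36 to 0.48) at 8 h and 0.24 (0.18 to 0.29) at 24 h against 0 h, and -0.19 (-0.24 to -0.13) at 24 h against 8 h. LCP1 thus had the higher of its treated levels at 8 h, while both thymosins had theirs at 24 h. Within the counts of LCP1 and both thymosins together, LCP1 held 64.2% (95% Wilson interval 63.1% to 65.2%) at 0 h, 61.8% (60.7% to 62.8%) at 8 h and 52.1% (51.1% to 53.0%) at 24 h.

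**Figure D1:**
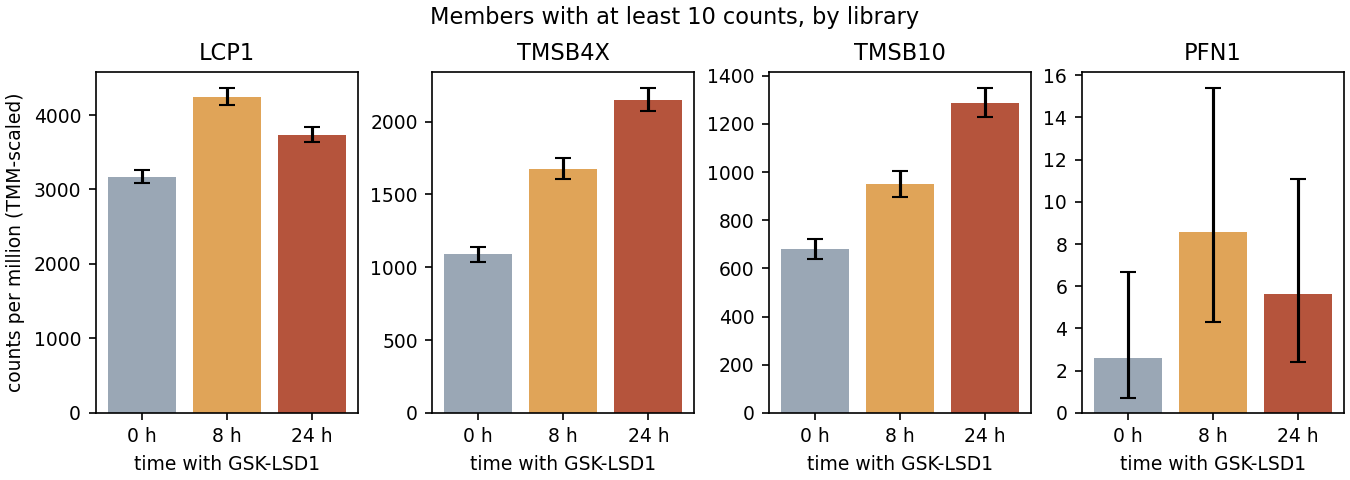
Levels of the 4 members with at least 10 counts (vertical axes, CPM after TMM scaling, each from 0 and each on its own scale) at 0 h, 8 h and 24 h of GSK-LSD1, with bars for single libraries and lines for exact 95% counting intervals. LCP1 stands highest at 8 h (4242 CPM), TMSB4X and TMSB10 stand highest at 24 h (2150 and 1287 CPM), and the intervals of PFN1 overlap between all time points.

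In GRCh38, LCP1 spans 46125920 to 46211871 on the reverse strand of chromosome 13, and its main coding transcript has 16 exons and 3643 bp. The 250 bases before its RefSeq start (GRCh38.p14, reverse strand, chr13:46182178-46182427) are shown because LCP1 is a leukocyte gene and motifs of myeloid factors were searched there. RefSeq gave promoters for 9 of the 10 genes. No entry was matched for ACTB, so its promoter was not searched. Capitals mark the motif matches.
LCP1: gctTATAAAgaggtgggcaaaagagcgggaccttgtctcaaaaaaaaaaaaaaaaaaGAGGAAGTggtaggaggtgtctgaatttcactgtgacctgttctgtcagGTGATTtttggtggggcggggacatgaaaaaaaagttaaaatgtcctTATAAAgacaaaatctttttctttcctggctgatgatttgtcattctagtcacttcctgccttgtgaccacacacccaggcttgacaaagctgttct
Both strands were searched for 4 motifs, and positions count back from the start. A PU.1-type ETS motif, GAGGAAGT, lay at -193 to -186 and is present in 2.17% of 35116 windows of the same length. The reverse complement of a GFI1-type motif, AATCAC, lay at -144 to -139, and 9.02% of all windows hold that motif. The letters TATAAA, as in the core promoter TATA box, lay at -247 to -242 and at -97 to -92 and are present in 10.7% of windows. The CArG box bound by SRF, present in 1.16% of windows, was not matched in LCP1. ACTG1 and FLNA each held a CArG box at -94 to -85, and the remaining member windows, those of TMSB4X and TMSB10 included, held no match to the 4 motifs as searched. Variants were not counted, such as tatataag, which the TMSB10 window holds near its start site. A match describes letters only, not a bound site.

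PFN1, or profilin, had 4 counts in untreated cells, 11 at 8 h and 8 at 24 h, or 2.60 CPM (0.709 to 6.67), 8.59 CPM (4.29 to 15.4) and 5.63 CPM (2.43 to 11.1). The untreated library was lowest, but all intervals overlap. The log2 ratio was 1.72 (-0.03 to 3.83) at 8 h and 1.11 (-0.79 to 3.30) at 24 h against 0 h, so no difference of PFN1 was detectable with these few counts. PFN1 lies on the reverse strand of chromosome 17 from 4945652 to 4949061, with a main coding transcript of 807 bp in 3 exons. Of these, only 15 bp (1.86%) lie outside exons of transcripts with another coding sequence. The low count is given as listed and not as low expression, and its cause was not tested.

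Across the 9609 features that reached 10 counts in any library, 4.51% had a log2 fold change (log2 CPM with a prior count of 2) above 1 and 6.02% below -1 at 8 h against 0 h. Of the 4 members that passed the count filter, 1 was above 1, PFN1 with 1.32, and 0 were below -1. With 4, 11 and 8 counts, PFN1 passed the filter only through the 8 h library, where it was highest. Its place above 1 at 8 h is therefore no support for a difference. With a prior count of 5, or with at least 50 counts required, 0 members were above 1. At 24 h against 0 h, 6.19% of all features were above 1 and 5.58% below -1, and 0 members were past either bound, TMSB4X lying just inside with 0.98 and TMSB10 with 0.92. At 24 h against 8 h, 4.03% were above 1 and 1.97% below -1, again with 0 members.

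A counting interval wholly above 0 was found at 8 h for 11.7% of all features and wholly below 0 for 9.71%, and at 24 h for 13% and 12.6%. LCP1, TMSB4X and TMSB10 were in the higher class both times, and 0 members were in the lower class. At 24 h against 8 h, 4.87% of all features were wholly above 0 and 5.58% wholly below it. Here TMSB4X and TMSB10 were in the higher class and LCP1 in the lower. Well-counted features pass this criterion at smaller differences, so the percentages are no measure of what features as deep as these would give. The comparisons with 0 h share the untreated library.

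The log2 fold change of TMSB4X stood at the 88.9th percentile of the features tested at 8 h, the 93.6th at 24 h and the 79.9th between 8 h and 24 h. TMSB10 stood at the 83.9th, 92.7th and 83.5th percentile, and LCP1 at the 80.9th, 68.3rd and 28.7th. The median over all features was -0.01 at 8 h, -0.01 at 24 h and 0.00 from 8 h to 24 h. Over the 235 features that reached 1000 counts in any library it was 0.12, 0.09 and -0.06, and 12.3% of these deep features exceeded 0.5 at 8 h and 13.6% at 24 h. TMSB4X exceeded 0.5 at both times, TMSB10 at 24 h, and LCP1 at neither. The median of the 4 members tested was 0.55, 0.86 and 0.09, given as a description of the genes that passed the filter, not of the 10. PFN1 is among these 4 only through its count at 8 h.

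**Figure D2:**
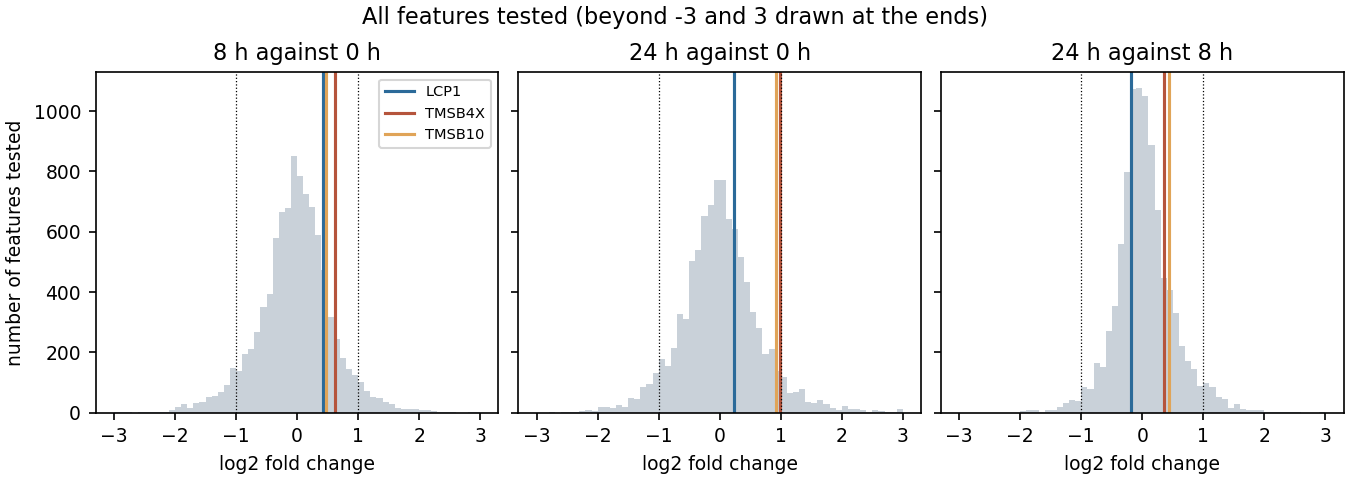
Histograms of the log2 fold change (horizontal axes) of all 9609 features tested (vertical axes, number of features) for each pair of time points, with vertical lines for LCP1, TMSB4X and TMSB10 and dotted lines at -1 and 1. The thymosins lie together towards the right in each panel, at 0.98 and 0.92 for 24 h against 0 h, and LCP1 lies left of 0 for 24 h against 8 h.

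By counts, LCP1 was the 19th, 17th and 21st most abundant feature at 0 h, 8 h and 24 h. TMSB4X moved from rank 81 to 53 and 34, and TMSB10 from rank 198 to 124 and 72. LCP1, TMSB4X, TMSB10 and PFN1 together held 0.514% of the counts (95% Wilson interval 0.503% to 0.526%) at 0 h, 0.672% (0.658% to 0.686%) at 8 h and 0.706% (0.692% to 0.719%) at 24 h. Per kilobase of the main coding transcript, the level of TMSB4X was 1750 CPM at 0 h, 2697 at 8 h and 3456 at 24 h. TMSB10 followed with 1477, 2058 and 2792 CPM per kilobase and LCP1 with 870 (846 to 895), 1164 (1134 to 1196) and 1024 (997 to 1052). PFN1 came last with 3.23, 10.6 and 6.98. The order TMSB4X, TMSB10, LCP1, PFN1 was the same in every library, and the intervals of neighbours did not overlap. With the bases outside exons of transcripts with another coding sequence in place of the whole transcript, an alternative added after the data were seen, LCP1 stood above TMSB4X, so the order depends on which bases were counted.

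ACTG1, the cytoplasmic γ-actin, CORO1A, the leukocyte coronin, and FLNA, the filamin that crosslinks actin into networks, are listed at 0 in every library. Taking 3 counts as the one-sided limit that a count of 0 allows, a smaller bound than the upper end of the intervals used for levels, these rows could hold up to 1.95 CPM at 0 h, 2.34 at 8 h and 2.11 at 24 h. Since actins and filamin serve nearly every cell, and MYL6, TUBA1B and IQGAP1 (named after their values were seen) are also listed at 0, these zeros are given as listed and not as absent expression. How reads shared by several features were counted is not given in the sources used here.

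The members differ widely in how much of their main coding transcript in GENCODE v44 lies outside exons of transcripts with another coding sequence. All 622 bp of TMSB4X (100%) and 452 bp of TMSB10 (98.0%) lie outside such exons. The value is 228 bp (6.26%) for LCP1, 15 bp (1.86%) for PFN1, 167 bp (1.96%) for FLNA, 6 bp (0.313%) for ACTG1 and 1 bp (0.0616%) for CORO1A. Among the 3 genes not analysed here by accession it is 0 bp for ACTB, 159 bp (12.8%) for CFL1 and 274 bp (12.7%) for VIM. FLNA lies on chromosome X from 154348524 to 154374634 with 48 exons in its main coding transcript, CORO1A on chromosome 16 from 30182827 to 30189076 with 11, and ACTG1 on chromosome 17 from 81509413 to 81523847 with 6.

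Over the members and the listed pathway genes with a row, the 40 rows at 0 in every library had a median of 0.0228% of unshared bases, and 38 of them had under 300 such bases. The 53 rows with at least 10 counts had a median of 8.40%, and 26 of them had under 300. The 13 rows that reached 1000 counts had a median of 29.3%. Rows at 0 and rows above 1000 counts both occur near 0% of unshared bases. The part of exon sharing in the zeros was not tested.

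**Figure D3:**
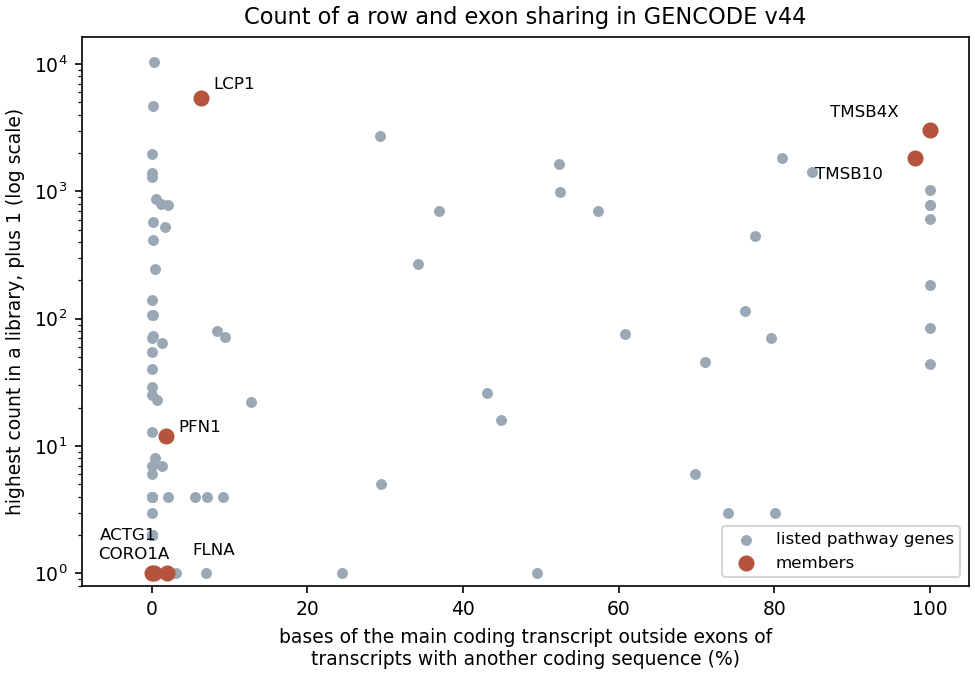
Highest count of a row in any library plus 1 (vertical axis, log scale) against the percentage of bases of its main coding transcript outside exons of transcripts with another coding sequence (horizontal axis), with red points for members and grey points for listed pathway genes. TMSB4X and TMSB10 lie at the right with 100% and 98.0%, and ACTG1, CORO1A and FLNA lie at the bottom left with 0 counts.

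Under transcript identifiers, the table holds 40 rows for further transcripts of the 10 genes, of which 10 had a count, summing to 26, 30 and 35 counts over the time points. It also holds 67 rows for their pseudogenes, 31 of them with a count, summing to 58, 53 and 68. These rows name retained-intron, other or pseudogene transcripts, and which transcripts their few reads came from was not tested.

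The VIM gene, on the forward strand of chromosome 10 from 17228241 to 17237593, has 4 such rows, which held 2 counts in untreated cells, 18 at 8 h and 15 at 24 h. The untreated library was lowest, with a log2 ratio of 3.43 (1.37 to 6.58) at 8 h and 3.02 (0.92 to 6.19) at 24 h, and the treated libraries differed by -0.41 (-1.50 to 0.66). The retained-intron transcript ENST00000495528 had 1, 10 and 6 counts and ENST00000485947, which has no defined coding sequence, had 0, 5 and 6. Of their 962 and 1139 bp, 619 and 641 bp overlap exons of other genes, and only 100 and 383 bp lie outside exons of all other transcripts.

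The antisense gene VIM-AS1, named after its values were seen, had 7, 11 and 22 counts over its 4 rows, with a log2 ratio of 0.91 (-0.58 to 2.52) at 8 h and 1.77 (0.49 to 3.24) at 24 h. Its transcript ENST00000605833 starts at 17230018 on the reverse strand and spans the start of ENST00000485947 at 17229291. Whether the counting used strand is not given in the sources used here, so reads from VIM and VIM-AS1 cannot be told apart where they overlap.

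The transcript-identifier rows of ACTB and the actin pseudogenes had intervals that span 0. ACTB's retained-intron transcript had 11, 8 and 10 counts, its 12 pseudogene rows summed to 19, 13 and 17, and the 25 ACTG1 pseudogene rows summed to 22, 17 and 21. At 24 h, the log2 ratio to untreated cells was -0.02 (-1.42 to 1.35) for the ACTB transcript, -0.05 (-1.08 to 0.98) for the ACTB pseudogenes and 0.05 (-0.89 to 0.98) for the ACTG1 pseudogenes. Each of these intervals reaches to 0.98 or more above 0, so with these few counts a sizeable difference would not have been detectable.

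The 6 TMSB4X pseudogene rows summed to 6, 16 and 20 counts, with a log2 ratio of 1.68 (0.25 to 3.32) at 8 h and 1.85 (0.48 to 3.46) at 24 h. Most of these counts lay on TMSB4XP8, with 2, 9 and 12, and TMSB4XP6, with 1, 5 and 5. Each aligns to the 135-base coding sequence of TMSB4X with 1 mismatch, an identity of 99.3%, and shares unbroken runs of 89 and 122 bases with it. All 135 bp of TMSB4XP6 also overlap exons of other genes. Reads of a parent gene, of an overlapping gene and of such copies may not be separable, so these pseudogene counts are uncertain. The CFL1 pseudogenes had 3, 2 and 4 counts, the PFN1 pseudogenes 7, 4 and 6, and the transcript-identifier rows of FLNA and ACTG1 were listed at 0.

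**Figure D4:**
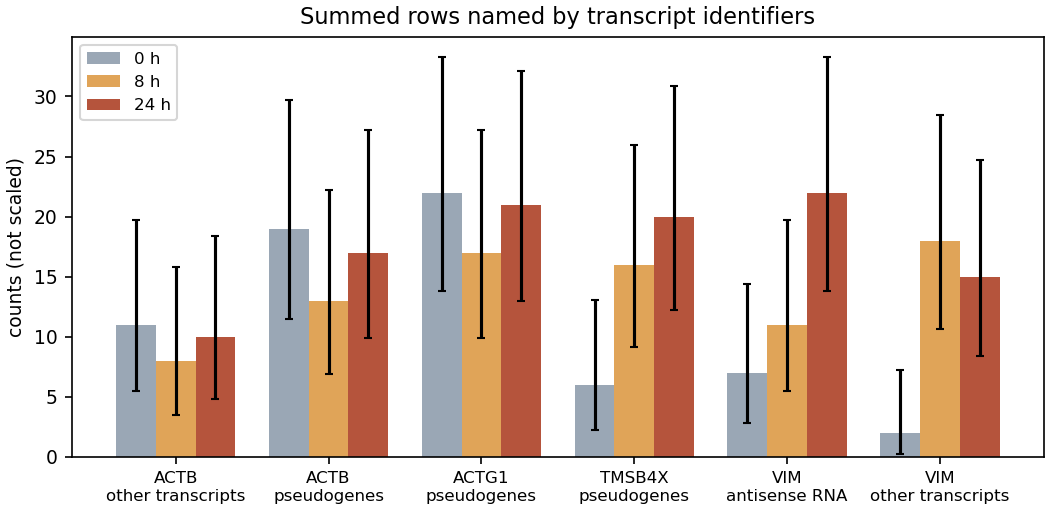
Summed counts (vertical axis, not scaled to library size) of rows named by transcript identifiers, at 0 h, 8 h and 24 h, with bars for single libraries and lines for exact 95% Poisson intervals. VIM transcripts hold 2, 18 and 15 counts and TMSB4X pseudogenes 6, 16 and 20, while the ACTB and ACTG1 groups stay between 8 and 22.

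A list of 116 further cytoskeletal genes was read the same way, with gene names taken from known UniProt accessions. Of these, 110 were matched by accession, 37 are listed at 0 in every library, 49 reached 10 counts and 39 reached 50 counts. The genes named with the following counts were picked after their values were seen. At 8 h against 0 h, 5 of the 49 had a log2 fold change above 1, namely PLEC, LMNA, NES, TUBA1A and TUBA1C, and 0 were below -1, beside 4.51% and 6.02% of all features. At 24 h against 0 h there were 6 and 0, with SPTBN1 and ENAH in place of LMNA, beside 6.19% and 5.58%. At 24 h against 8 h there were 2 and 0, ENAH and MRTFB, beside 4.03% and 1.97%. Of these, NES (nestin, 8, 24 and 43 counts), TUBA1A (11, 23 and 39), TUBA1C (3, 15 and 13), ENAH (4, 3 and 12) and MRTFB did not reach 50 counts in any library. NES and TUBA1C passed the filter of 10 counts only through the treated libraries, and ENAH only through the 24 h library. Their places above 1 are thus partly set by the filter and are no support for a difference. At 24 h against 8 h, the counting intervals of ENAH (-0.04 to 4.32) and MRTFB (-0.04 to 2.44) span 0. The counting interval was wholly above 0 for 19 and wholly below it for 4 at 8 h (ACTR2, WIPF1, CAPZA2 and LIMK2), beside 11.7% and 9.71% of all features. It was so for 20 and 5 at 24 h (ACTR2, CAPZA1, CAPZA2, MARCKSL1 and TUBA4A below), beside 13% and 12.6%, and for 3 and 7 at 24 h against 8 h (NCKAP1L, FSCN1 and RAC2 above), beside 4.87% and 5.58%. As for the members, well-counted genes pass this criterion at smaller differences. Their median log2 fold change was 0.13, 0.18 and 0.00 in the 3 comparisons.

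Crosslinking and bundling genes, the role of LCP1, had 6 genes with at least 10 counts, and all 6 had a counting interval wholly above 0 at 24 h against 0 h, as had 4 at 8 h, beside 13% and 11.7% of all features. SPTBN1, a spectrin of the membrane skeleton, had 23, 33 and 54 counts and the highest log2 ratio of the group at 24 h, 1.34 (0.62 to 2.12). TAGLN2, a transgelin that binds filaments, had 668, 688 and 797 counts and the lowest, 0.37 (0.22 to 0.52). The LIM protein LASP1 had 837, 1172 and 1392 counts and 0.85 (0.72 to 0.97). The other 6 listed genes of this role are at 0 in every library.

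Among regulators of monomers and of nucleation, CAP1, a cyclase-associated protein that recycles actin monomers, had 9096, 9254 and 10299 counts, with a log2 ratio of 0.29 (0.25 to 0.33) at 8 h and again 0.29 (0.25 to 0.33) at 24 h. It was the only one of 7 listed monomer-binding or turnover genes with at least 10 counts. The Arp2/3 complex, which starts branched filaments, had 5 genes with at least 10 counts. At 8 h, 1 had an interval wholly above 0, ARPC4 with 0.16 (0.01 to 0.32), and 1 wholly below. All features gave 11.7% and 9.71% there. At 24 h, 0 were wholly above and 1 wholly below, beside 13% and 12.6% of all features. That 1 was ACTR2, named after its values were seen, with 2698, 1800 and 2053 counts and -0.28 (-0.36 to -0.20). ACTR3 had 75, 67 and 48 counts, at a log2 ratio of -0.53 (-1.08 to 0.01) at 24 h, and ARPC4 had 700, 654 and 649 counts and 0.00 (-0.15 to 0.16). WASF2, an activator of the complex, had 1597, 1833 and 1831 counts, at a log2 ratio of 0.31 (0.21 to 0.41), while WIPF1, a partner of WASP, had 411, 268 and 337 counts and -0.17 (-0.39 to 0.04).

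Of the capping and severing genes, 4 had at least 10 counts. At 24 h, 1 of these had an interval wholly above 0 and 2 wholly below, beside 13% and 12.6% of all features. Their median log2 fold change at 24 h was -0.23. TMOD3, which caps pointed ends, had 301, 407 and 448 counts, at a log2 ratio of 0.69 (0.47 to 0.90) at 24 h. CAPZA2, a subunit of the barbed-end capping protein, had 114, 64 and 77 counts and -0.45 (-0.89 to -0.02). CAPZA1, named after its values were seen, had 1628, 1270 and 1181 counts and -0.35 (-0.46 to -0.24). Tropomyosin TPM3 had 46, 42 and 69 counts, at a log2 ratio of 0.70 (0.14 to 1.27), and the myosin MYO1F had 245, 228 and 229 counts and 0.02 (-0.25 to 0.28). Of the genes that link actin to membranes and adhesions, talin TLN1 had 1682, 1778 and 1950 counts and 0.33 (0.23 to 0.42), and MARCKSL1 had 184, 151 and 130 counts and -0.39 (-0.72 to -0.06).

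Among the listed GTPase and kinase signalling genes, the kinase ROCK1 had 42, 71 and 79 counts, at a log2 ratio of 1.02 (0.47 to 1.60) at 24 h, and LIMK2, a kinase that acts on cofilin, had 71, 32 and 51 counts and -0.36 (-0.91 to 0.18). SRF, the factor known to drive actin genes, had 783, 649 and 715 counts, at a log2 ratio of -0.02 (-0.17 to 0.13) at 24 h. Its coactivator MRTFA is listed at 0, and MRTFB had 16, 9 and 22 counts.

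Among the genes listed under intermediate filaments, plectin (PLEC) is a linker between filament systems and not of the family of VIM. It had 246, 528 and 465 counts, at a log2 ratio of 1.36 (1.14 to 1.59) at 8 h and 1.03 (0.81 to 1.26) at 24 h. The lamin LMNB2 had 698, 588 and 613 counts and -0.07 (-0.23 to 0.08) at 24 h. Of the tubulins, which form microtubules, TUBA4A had 105, 75 and 61 counts, at a log2 ratio of -0.67 (-1.15 to -0.20) at 24 h. The other tubulins with at least 10 counts differed from 0 h the other way, TUBA1A with 1.94 (0.95 to 3.05) and TUBA1C, which had 3 counts at 0 h, with 2.23 (0.37 to 4.68). The 5 listed muscle actins and filamin C did not reach 10 counts.

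**Figure D5:**
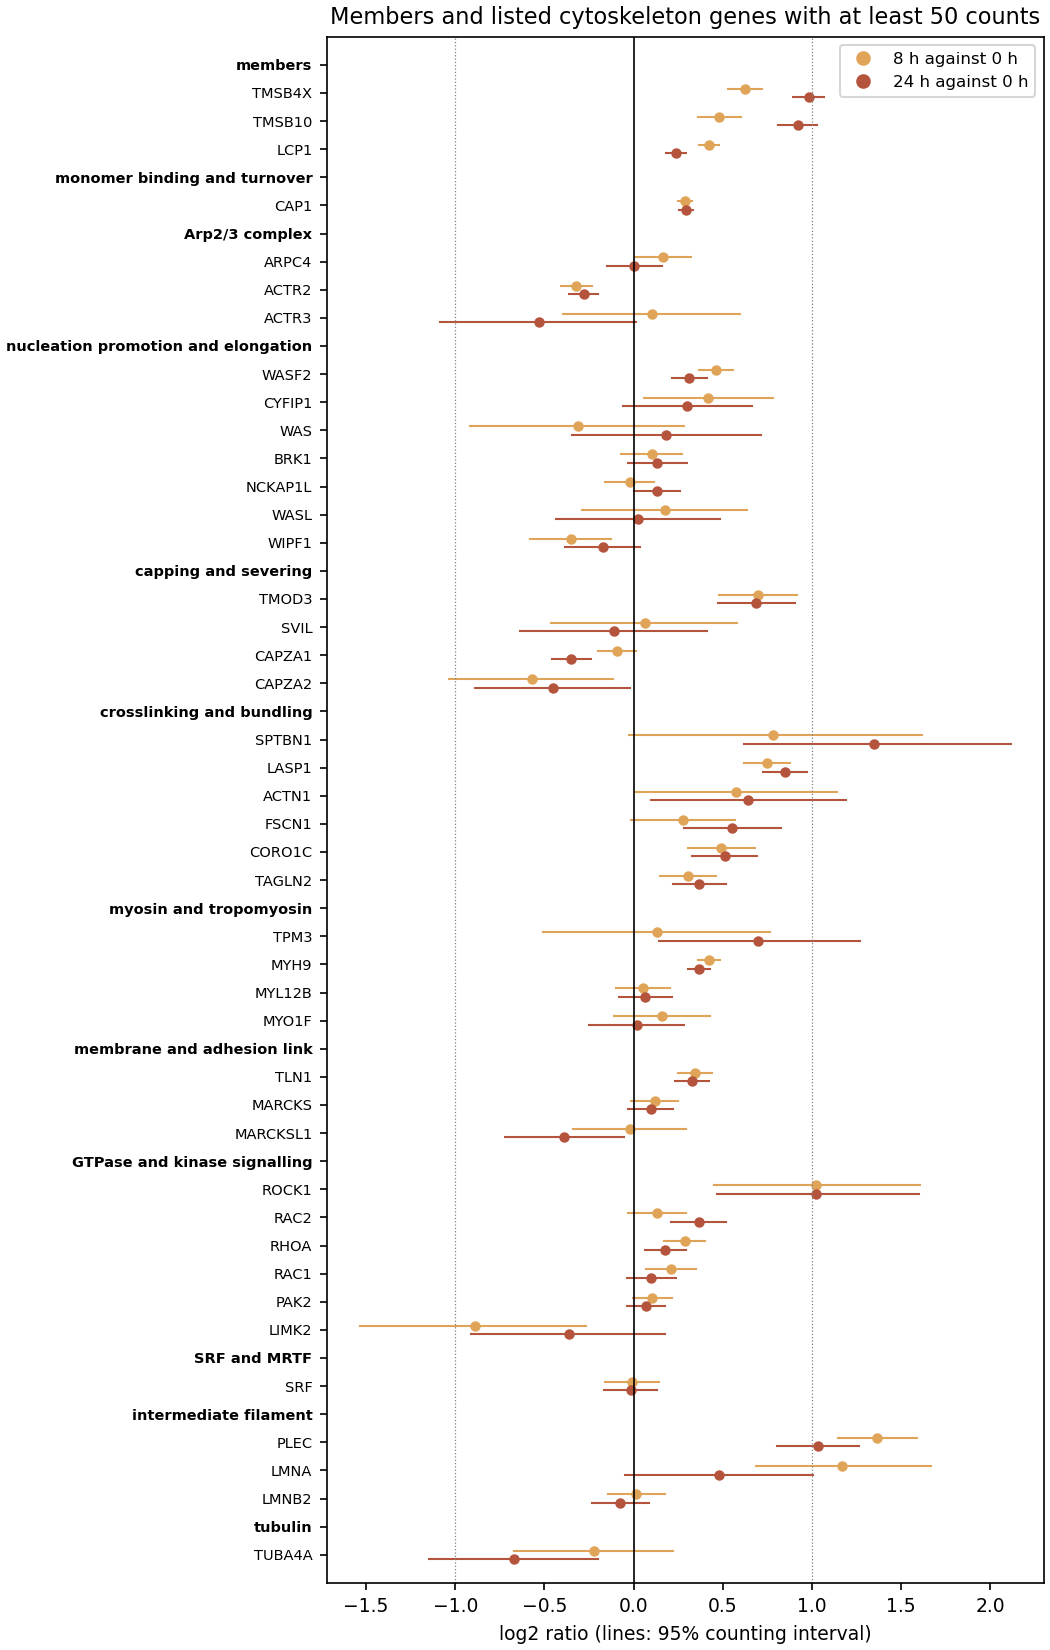
Log2 ratios against 0 h (horizontal axis) of the 3 well-counted members and the 39 listed cytoskeletal genes that reached 50 counts, grouped by role, with points for the ratio at 8 h and 24 h and lines for 95% counting intervals. All 6 crosslinking and bundling genes lie right of 0 at 24 h, and PLEC stands furthest right at 8 h, with 1.36.

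ACTB and VIM, whose nearest pathway genes were to be named, were not analysed here by accession, so the likeness was taken for the 3 well-counted members, a choice made after their values were seen. Over the 2 log2 ratios against 0 h, which share the untreated library, and 41 candidate genes, the nearest to TMSB4X were TMSB10 at a distance of 0.159, LASP1 at 0.183 and TMOD3 at 0.304. The nearest to TMSB10 were TMSB4X, LASP1 at 0.279 and ACTN1 at 0.295. The nearest to LCP1 were CYFIP1 at 0.064, WASF2 at 0.085 and TLN1 at 0.120. With 3 libraries these distances are a description.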

How the data were processed

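RNA-seq counts of THP-1 cells at 0 h, 8 h and 24 h of 0.2 µM GSK-LSD1 were used, with 1 library per time point assigned from its label. Per the study's methods, the authors removed ribosomal RNA, fragmented the RNA and mapped reads to hg38 through Seq2science with STAR as default aligner, and the submitters' processing notes also name fastp. The authors deposited raw counts, whole numbers for each feature that were not normalized. Which tool, annotation and strand setting produced them, and how reads shared by features were treated, is not given in the sources used here. This bears on every gene that shares exons or near-identical copies with others.

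Members were found by accession. Names of pathway and marker genes were assigned from known UniProt accessions, since the files do not pair accessions with genes. A few listed genes are not reported here. Members and lists were chosen with earlier results of these data known. Libraries were scaled with TMM in edgeR 4.0.16 (R 4.3.3). Fold changes used log2 CPM with a prior count of 2 over features that reached 10 counts in any library, with 1 as the log2 threshold. Single ratios used no prior count, with exact Clopper-Pearson 95% intervals conditional on the sum of both counts. Levels have exact Poisson intervals and shares have Wilson intervals. Totals of 1310912 to 1475938 counts per library limit the precision of genes with few counts, and a count of 0 allows 3 counts. Exons were read from GENCODE v44 and promoters from RefSeq (GRCh38.p14). Intervals were computed in Python 3.11.15 with scipy 1.17.1. The calculation was tested on simulated counts.

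The text names all members, SRF, MRTFA, MRTFB, the markers, member transcripts and pseudogenes with at least 10 counts, and in each role the highest and lowest log2 ratio at 24 h among genes with at least 50 counts. The rule also asked for the genes nearest to ACTB and VIM. Since these were not analysed here by accession, the genes nearest to LCP1, TMSB4X and TMSB10 are named in their place. These genes, ACTR2, VIM-AS1, the genes named beside the pathway counts, TMSB4XP6, MYL6, TUBA1B, IQGAP1 and the transcripts and sums with fewer counts are not covered by it and were picked once their values had been seen. Alternatives were scaling by DESeq2 1.42.0, by all counts or by counts outside mitochondrial rows, and other prior counts, filters and thresholds.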

Additional observations from a re-analysis of the deposited data

How the results depend on the processing

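No paired analysis was possible because each time point has 1 library, and for the same reason no library could be left out. LCP1, TMSB4X and TMSB10 kept the direction of each log2 ratio under DESeq2 1.42.0 size factors and both scalings by total counts. Scaling by total counts lowered the median of all features by 0.09 at 8 h and 0.08 at 24 h. LCP1 then had 0.33 (0.33 without mitochondrial rows) at 8 h and 0.15 (0.16) at 24 h, and TMSB4X had 0.53 at 8 h without them. With a prior count of 5, 0 members and with 0.5 again 1 member exceeded 1 at 8 h, and with 0.5 1 member did so at 24 h. With at least 50 counts, 0 members exceeded 1 at 8 h. Of the 39 pathway genes that reached 50 counts, 2 were above 1 at 8 h, 2 at 24 h and 0 from 8 h to 24 h. These replace the 5, 6 and 2 among 49 genes under the main filter. Over all features with at least 50 counts, 88, 132 and 24 were above 1. With a prior count of 5, 1 pathway gene exceeded 1 from 8 h to 24 h, and without a filter 4 were below -1. With a threshold of 0.5, members above it numbered 2 at 8 h (PFN1 and TMSB4X) and 3 at 24 h (TMSB10 as well). The 1 member below its negative from 8 h to 24 h was PFN1, on 11 and 8 counts. Its interval there spans 0 (-2.13 to 0.84). Of the 49 pathway genes, those above numbered 10, 15 and 8 and those below 3, 2 and 2 in the 3 comparisons. Of all 9609 features, 1448, 1751 and 1345 were above and 1740, 1724 and 944 below. Per unshared kilobase at 0 h, an alternative chosen after seeing the data, LCP1 stood at 7.94 times TMSB4X, against 0.497 times per whole transcript. This follows from the lengths used, 228 and 622 bp.

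Counts over all features moved by over 1.5 times with the filter, the prior count and the threshold. Features above and below were 433 and 578 at 8 h, 595 and 536 at 24 h, and 387 and 189 from 8 h to 24 h. With at least 50 counts they were 88 and 60, 132 and 76, and 24 and 5, and without a filter 3277 and 2319, 2474 and 1999, and 1865 and 2778. With a threshold of 0.5 they were 1448 and 1740, 1751 and 1724, and 1345 and 944. Raising the prior count to 5 left 255 and 294 at 8 h, 294 below at 24 h, and 156 and 78 from 8 h to 24 h, and lowering it to 0.5 put 293 below there. Of 196 values under the alternatives, 149 stayed within their counting interval or within 1.5 times, 46 moved and 1 reversed. The share of ACTB in both actins, rows of single isoforms and a thymosin share with transcript rows were not run, since the rows used here do not hold the counts they need. Few counts limit the precision of PFN1 and of the transcript rows.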
